A study of Mus musculus with 4 samples.

Results

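The 10 genes described here are markers by which mouse macrophages are called alternatively activated (Retnla, Arg1, Chil3, Mgl2, Mrc1) or tissue resident (Cd163, Folr2, Lyve1, Fcrls), together with the lipid receptor gene Trem2. They were taken by symbol, and all 10 were found among the 32285 features of the deposited matrices. Their transcripts were counted in 4 libraries made on the 10x single-cell platform, 1 of uninjured tibial muscle (Uninjured) and 3 of injured muscle taken on day 1, day 3 or day 7 after the injury (1, 3 and 7 dpi). All 4 groups came from C57BL/6 mice of 6-8 weeks carrying the Nse-Bmp4 transgene, in which the rat neuron-specific enolase promoter drives mouse Bmp4, and the 3 injured groups had received cardiotoxin, a muscle toxin that in these mice leads to heterotopic ossification (HO), the formation of bone in soft tissue. No library from mice without the transgene was analysed here, so every value below is from muscle of transgenic animals. Muscles were digested with collagenase and 3 were pooled for each library, so that a time point is 1 library without a replicate. A difference between time points therefore cannot be told apart from a difference between libraries, and no test between time points and no p-value was computed.

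Macrophages in muscle derive from resident cells and from blood monocytes that enter after injury and mature in place. Interleukins 4 and 13 act through their receptors and STAT6 to raise a set of genes, among them Retnla, Arg1, Chil3, Mgl2 and Mrc1, that is used as the signature of alternative (M2) activation. Resident macrophages of many tissues are recognised by scavenger and uptake receptors such as CD163, the folate receptor FOLR2 and the hyaluronan receptor LYVE1.

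Each cell was assigned to a class by the UMIs (unique molecular identifiers, counts of captured transcripts) of marker genes, and none of the 10 genes was a marker. A mononuclear phagocyte needed at least 2 of 6 markers, among them Csf1r, Cd68 and Adgre1, and at least 2 of 5 leukocyte markers. Those with at least 2 of C1qa, C1qb and C1qc were called C1q macrophages, and the remaining phagocytes were split into nonclassical monocytes, Ly6c2 monocytes and other mononuclear phagocytes. C1q macrophages numbered 80 in Uninjured, 731 at 1 dpi, 501 at 3 dpi and 111 at 7 dpi, of 304, 1668, 910 and 403 mononuclear phagocytes. The median UMIs per C1q macrophage were 8180.5, 7405, 5147 and 4480 in the same order. Levels are given as CPM, in which the UMIs of a gene in a class and library were added up and scaled to all UMIs of the same cells, with exact Poisson 95% intervals. Shares of cells carry exact Clopper-Pearson 95% intervals, and all intervals cover counting error only, not the variation between mice. Intervals of levels and ratios also leave out the variation between cells. Levels were not divided by gene length, so they are compared between libraries and classes for a given gene but not between genes.

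The composition of the C1q macrophages differed between libraries. Ly6c2, a gene of classical monocytes, was carried by 17.5% of them in Uninjured, 88.2% at 1 dpi, 33.5% at 3 dpi and 19.8% at 7 dpi. The 5 mesenchymal genes Col1a1, Col1a2, Col3a1, Dcn and Lum, all detected in every library, summed to 909, 242, 561 and 6294 CPM. Ly6c2 thus moved with the time points at 1 dpi and the mesenchymal genes at 7 dpi. Each level of the 10 genes in C1q macrophages is therefore also given without the cells that carried Ly6c2. This left 66, 86, 333 and 89 cells. The part of the mesenchymal genes in the results was not tested. The 5 neutrophil genes (S100a8, S100a9, Csf3r, Cxcr2, Retnlg) summed to 247, 278, 819 and 178 CPM with Cxcr2 at 0 at 7 dpi, and the 4 dendritic genes (Flt3, Zbtb46, Cd209a, Xcr1) to 72.2, 16.3, 33 and 27.5 CPM with Zbtb46 and Xcr1 at 0 in Uninjured and Flt3 and Xcr1 at 0 at 7 dpi. The 5 osteoclast genes summed to 59.7, 49, 48.6 and 326 CPM with Ocstamp and Dcstamp at 0 in Uninjured and Dcstamp at 0 at 7 dpi, and the 6 immediate early and stress genes to 21524, 13175, 11739 and 12622 CPM. As a guide to free RNA, the highest share of T and NK cells with a UMI of any of the 10 genes was 3.75%, for Chil3 at 1 dpi, and the highest share of B cells 3.65%, for the same gene and library. Their median depths at 1 dpi were 4232 and 2854.5 UMIs.

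Between Uninjured and 1 dpi, 5 of the 9 genes with enough UMIs for a ratio (at least 20 over both libraries) were lower in C1q macrophages by at least 2-fold and 1 was higher. Retnla, Mgl2, Fcrls, Cd163 and Trem2 were lower, and Chil3, which encodes a chitinase-like secreted protein, was higher. Of all genes tested in these cells, 23.1% passed 2-fold in either direction, 16.3% higher and 6.77% lower. The median log2 ratio was -1.75 over the 9 genes and 0.17 over all genes. All comparisons here and below share a library with the next, so their ratios are given side by side and not set against each other.

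Between 1 dpi and 3 dpi the levels of Retnla, Lyve1, Fcrls, Mgl2, Trem2 and Mrc1 were higher at 3 dpi by at least 2-fold, 6 of 10 tested, and none was lower. Of all genes 12.8% passed 2-fold, 7.34% higher and 5.49% lower, and the median log2 ratio was 1.49 for the 10 genes against 0.01 for all. In the C1q macrophages without a Ly6c2 UMI, 4 were higher and 1 lower of 8 tested, against 15.5% of all genes. From 3 dpi to 7 dpi only Mgl2 was higher by 2-fold, while Cd163, Arg1, Lyve1, Folr2 and Chil3 were lower, with 17.4% of all genes past 2-fold, 6.75% higher and 10.7% lower, and a median log2 ratio of -1.13 for the 10 genes against -0.06. The ratios of Cd163 and Lyve1 in that comparison rested on 1 UMI each at 7 dpi, and their intervals include 1.

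At 7 dpi against Uninjured, Retnla, Arg1, Cd163 and Folr2 were lower by at least 2-fold, 4 of 9 tested, and none was higher. Of all genes, 11.3% passed 2-fold in either direction, 7.31% higher and 3.96% lower, and the medians were -0.80 for the 9 genes and 0.04 for all. Mgl2, Mrc1, Fcrls, Trem2 and Chil3 were within 2-fold of the Uninjured level in C1q macrophages. The histograms of log2 ratios place each of these genes among all genes tested in the same cells. Over all mononuclear phagocytes Fcrls at 7 dpi was 3.08-fold below Uninjured (2.66-3.59) and Chil3 2.77-fold above it.

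**Figure D1:**
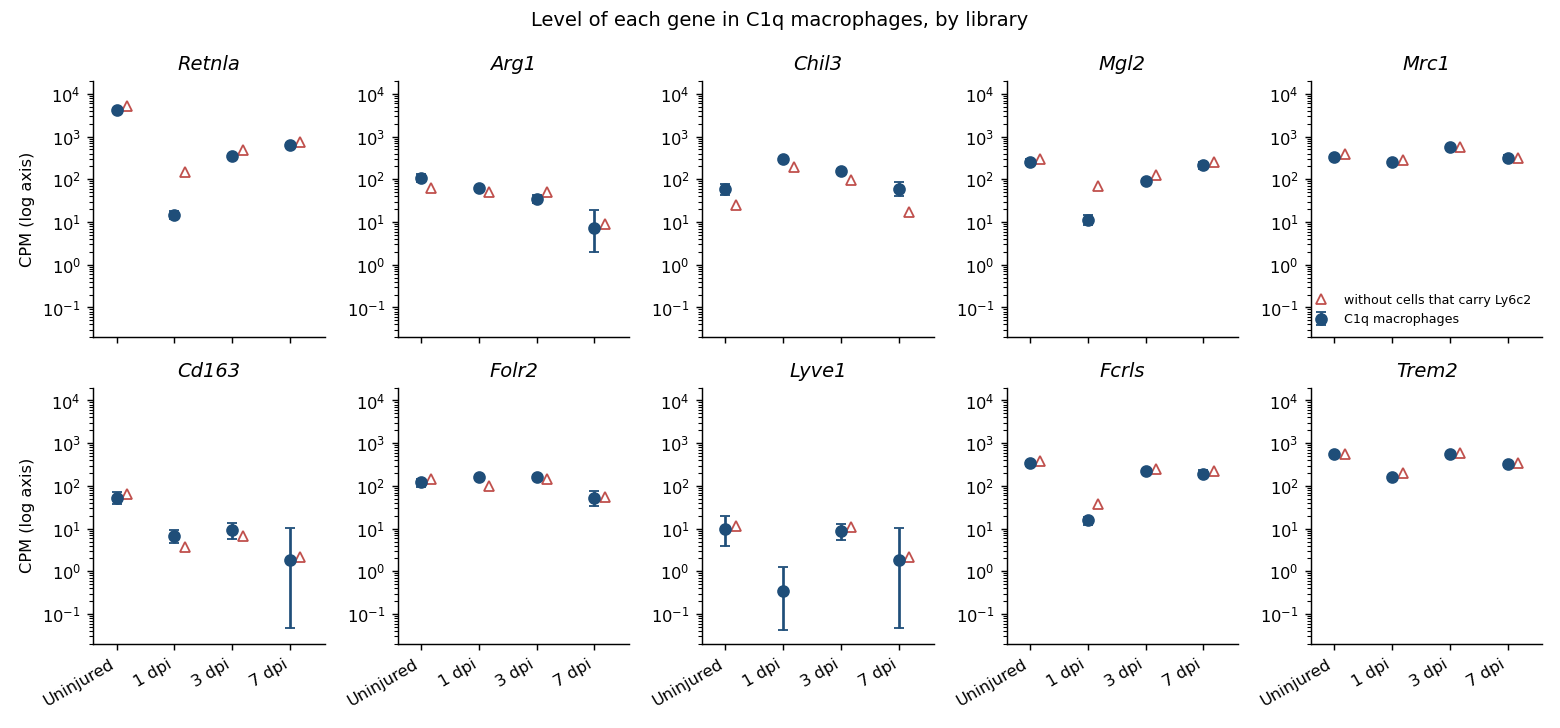
Level of each gene in C1q macrophages (CPM, log axis) in the 4 libraries, 1 per time point, with points for all C1q macrophages, bars for exact Poisson 95% intervals and open triangles for the C1q macrophages without a Ly6c2 UMI. Retnla, Mgl2 and Fcrls have their lowest points at 1 dpi, at 14.7, 11.2 and 15.6 CPM, and Chil3 its highest, at 298 CPM.

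**Figure D2:**
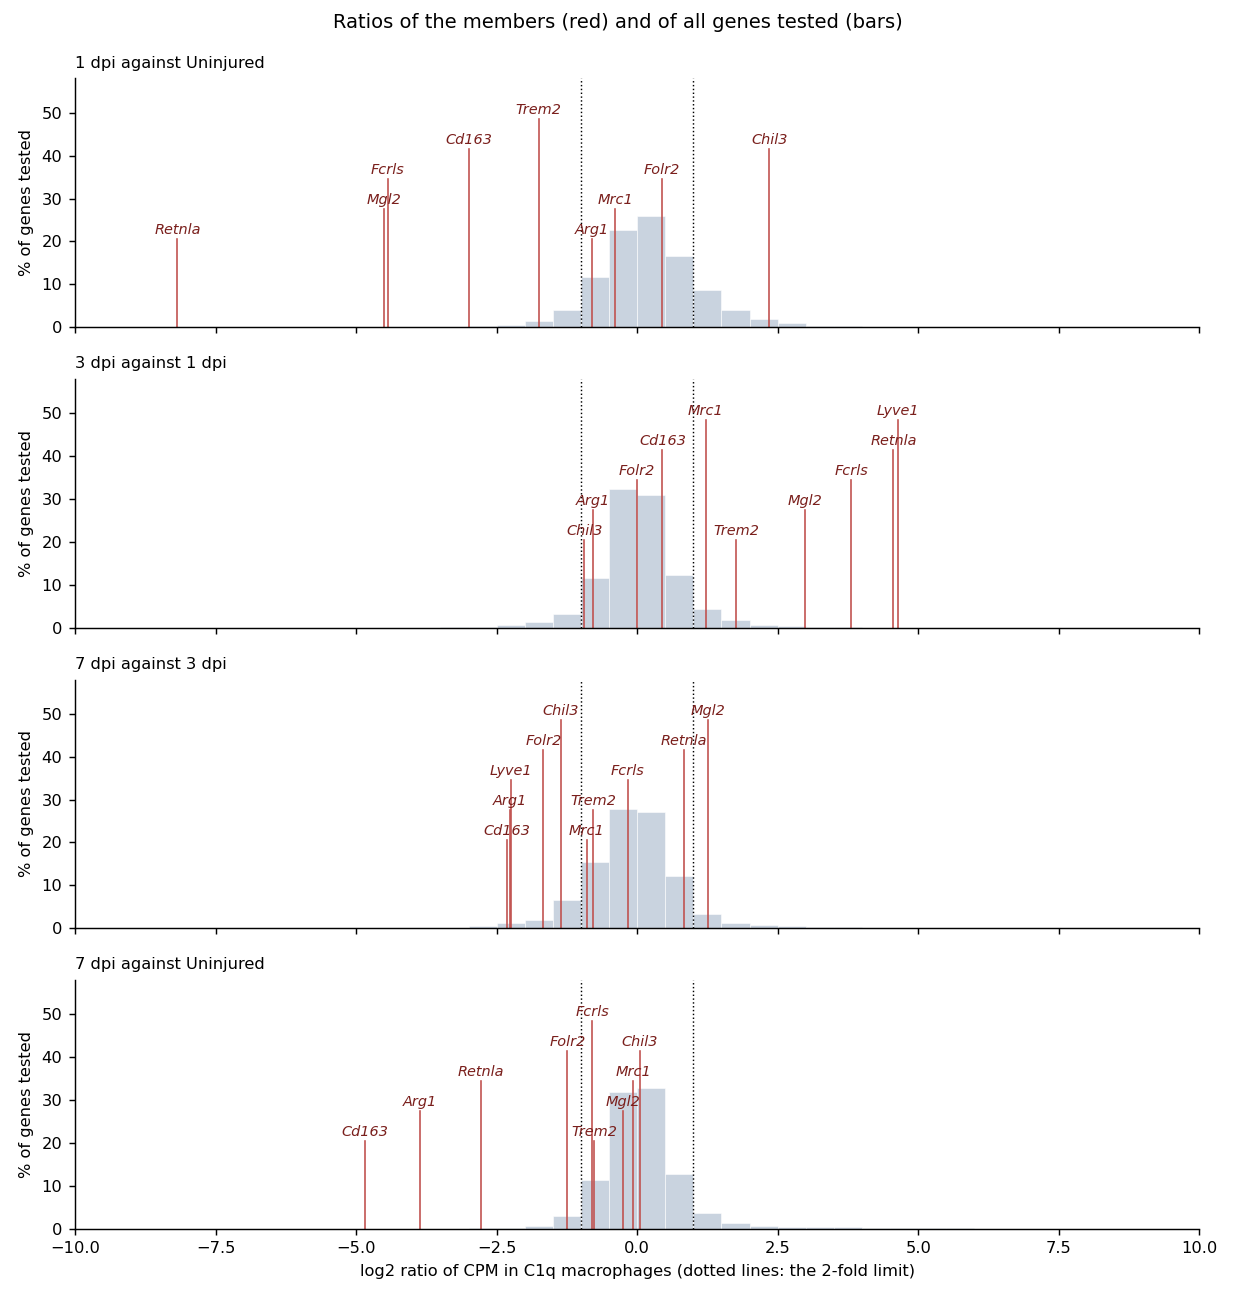
Histograms of the log2 ratio of every gene tested in C1q macrophages (x axis, log2 ratio, and y axis, % of genes tested) for the 4 comparisons between libraries, with the genes described here as red lines and 2-fold as dotted lines. At 1 dpi against Uninjured Retnla lies at -8.18, and the genes lie mostly left of the centre in that panel and right of it in the panel for 3 dpi against 1 dpi.

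Retnla (ENSMUSG00000061100, chr16:48842551-48844461, plus strand, GRCm38) encodes RELM-alpha, a secreted cysteine-rich protein used as a marker of alternative activation. In C1q macrophages it was at 4262 CPM (4113-4416, 3071 UMIs) in Uninjured, 14.7 CPM (11.7-18.2, 84 UMIs) at 1 dpi, 348 CPM (326-371, 918 UMIs) at 3 dpi and 620.5 CPM (556-690.2, 339 UMIs) at 7 dpi. Uninjured was the highest and 1 dpi the lowest, and no interval overlapped another. The level was 289.7-fold lower at 1 dpi than in Uninjured (interval 233-364), 23.7-fold higher at 3 dpi than at 1 dpi (18.9-30), and at 7 dpi still 6.87-fold lower than in Uninjured (6.14-7.71). These sums rested on few cells, since a single cell held 77 of the UMIs at 1 dpi, 576 at 3 dpi and 308 at 7 dpi, and the 5 highest cells of Uninjured held 2025. Cells with a UMI were 17 of 80, 4 of 731, 20 of 501 and 6 of 111. Cells were also thinned to 2000 UMIs each to remove the depth difference, and cells under 2000 UMIs were left out of all thinned shares. This left out 0, 17, 51 and 10 C1q macrophages in time order. The thinned shares were 20% (11.9-30.4), 0.14% (0.00355-0.778), 3.11% (1.71-5.16) and 4.95% (1.63-11.2), against 21.2%, 0.547%, 3.99% and 5.41% unthinned. The share thus separated Uninjured from the 3 injured libraries and 1 dpi from the others, but not 3 dpi from 7 dpi. At 1 dpi the thinned share overlapped those of B cells (0%, 0-0.315) and of T and NK cells (0%, 0-0.354). Without the cells carrying Ly6c2 the levels were 5101, 148, 481 and 745 CPM. With macrophages gated on other macrophage markers and the absence of Ly6c2, instead of on C1q genes, they were 5418, 75.7, 61.5 and 552 CPM, so that 3 dpi did not lie above 1 dpi in that gate. The 1 dpi cell with 77 Retnla UMIs carried no Ly6c2 UMI, and the other phagocytes of that library held 14 Retnla UMIs. How far this 1 cell set the 1 dpi levels without Ly6c2 was not tested.

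Upstream sequence was searched for every gene described here that had a window. That of Retnla is printed because it was the gene with the largest ratio. Fcrls is shown beside it because its level followed that of Retnla most closely over all classes and libraries. The windows run from 250 bases before to 50 after the annotated start, from RefSeq on GRCm38.p6, chr16:48842359-48842658 on the plus strand for Retnla and chr3:87263475-87263774 on the minus strand for Fcrls, printed 5′ to 3′. The RefSeq starts differ from the starts in the gene coordinates printed for these genes, and positions below are counted from the RefSeq start. Capitals mark matches to the motifs searched.
Retnla: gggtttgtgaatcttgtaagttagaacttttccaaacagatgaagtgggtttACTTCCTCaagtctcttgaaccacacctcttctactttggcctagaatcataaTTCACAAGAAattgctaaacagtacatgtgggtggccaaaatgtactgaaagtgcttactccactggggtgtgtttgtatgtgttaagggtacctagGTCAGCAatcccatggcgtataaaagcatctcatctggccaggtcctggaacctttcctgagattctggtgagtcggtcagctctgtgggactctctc
Fcrls: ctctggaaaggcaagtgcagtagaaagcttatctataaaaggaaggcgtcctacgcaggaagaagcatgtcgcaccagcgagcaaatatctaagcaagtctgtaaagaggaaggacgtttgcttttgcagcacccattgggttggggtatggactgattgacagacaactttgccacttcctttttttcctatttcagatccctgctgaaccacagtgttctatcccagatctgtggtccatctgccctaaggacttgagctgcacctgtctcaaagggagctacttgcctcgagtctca
The motifs, read on both strands, were TTC and GAA on either side of 4 bases for STAT6, GAGGAAGT for PU.1, TTGCGCAA for C/EBP and TGCTGAC as a MAF recognition element. They occur in 6.95%, 3.2%, 0.183% and 4.67% of all 32851 windows of this length. The Retnla window held TTCACAAGAA at -145, the PU.1 letters on the opposite strand as ACTTCCTC at -198 and the MAF letters on the opposite strand as GTCAGCA at -48, positions of the first base counted from the start site. Of the 8 genes with a window (9 windows, 2 for Folr2), Retnla was the 1 gene whose window held any of these letters. A match describes the sequence and is no measure of binding.

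The same decline was seen when all mononuclear phagocytes were summed, where Retnla was at 4382, 6.85, 209.8 and 257 CPM. The Uninjured level was 639-fold above that at 1 dpi (520.2-795). In Uninjured the other mononuclear phagocytes, which carried fewer than 2 C1q genes, were at 6241 CPM (6098-6387), against 4262 CPM in C1q macrophages. Of their 7241 UMIs, 2270 came from 5 cells. Before thinning, 41 of these 116 cells had a Retnla UMI (35.3%, 26.7-44.8), against 21.2% of C1q macrophages (12.9-31.8). These intervals of shares overlapped. Nonclassical monocytes were at 3766 CPM, but 1240 of their 1244 UMIs came from 5 cells, and dendritic cells were at 503 CPM from 5 cells. Outside the leukocytes, mesenchymal cells held 93, 4, 11 and 454 UMIs. The 454 UMIs at 7 dpi were 28.8% of the library total and were spread over 102 of 14974 cells, of which 19.6% also carried a C1q UMI, against 4.77% of the mesenchymal cells without Retnla. A UMI of any of the phagocyte markers was in 50% (39.9-60.1) of the cells with Retnla and 45.4% (44.6-46.2) of those without, with overlapping intervals.

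A limit of 10 Retnla UMIs per cell, chosen after its values were seen, marked 53 of the 304 mononuclear phagocytes in Uninjured, 1 of 1668 at 1 dpi, 10 of 910 at 3 dpi and 5 of 403 at 7 dpi. The 53 cells held 11526 of the 11558 Retnla UMIs of the Uninjured phagocytes, and 238 phagocytes had none. By class, 15 of the 53 were C1q macrophages, 33 other mononuclear phagocytes and 5 nonclassical monocytes, and no Ly6c2 monocyte was among them. Of the 238, 63 were C1q macrophages, 75 other mononuclear phagocytes, 37 nonclassical monocytes and 63 Ly6c2 monocytes. The sets thus differed in class, and the part of class in their shares of cells was not tested. The median depth of the 53 was 12551 UMIs and that of the 238 was 7022.5, so shares were compared at 2000 UMIs per cell.

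After thinning, Fcrls was carried by 81.1% of the 53 cells (68-90.6) and 10.9% of the 238 (7.26-15.6). Ear2, an eosinophil-associated ribonuclease gene, was carried by 58.5% (44.1-71.9) and 5.88% (3.25-9.67), Mrc1 by 58.5% (44.1-71.9) and 13.9% (9.74-18.9), and Mgl2 by 37.7% (24.8-52.1) and 10.9% (7.26-15.6). These 4 genes were more frequent in the Retnla-rich cells, with no overlap of intervals. Trem2 was the reverse, at 3.77% (0.46-13) and 35.7% (29.6-42.2), and Apoe, which encodes an apolipoprotein bound by TREM2, was at 17% (8.07-29.8) and 73.5% (67.4-79). Chil3 was in none of the 53 (0-6.72) and in 19.3% of the 238, and Ly6c2 in none and in 26.5%. Ccr2, another monocyte gene, did not follow Ly6c2. It was at 81.1% (68-90.6) and 64.7% (58.3-70.8), with overlapping intervals, and at 94.3% and 90.8% before thinning. Cd163 was at 9.43% (3.13-20.7) and 3.36% (1.46-6.52) with overlapping intervals, although its unthinned shares, 34% (21.5-48.3) and 6.72% (3.89-10.7), did not overlap. Before thinning Fcrls was in all 53 cells and 18.1% of the 238, and Trem2 in 7.55% and 54.6%. In uninjured muscle Retnla was thus found in cells that also carried Fcrls, Mgl2 and Mrc1 and seldom Chil3, which 1.89% of the 53 cells carried before thinning.

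**Figure D3:**
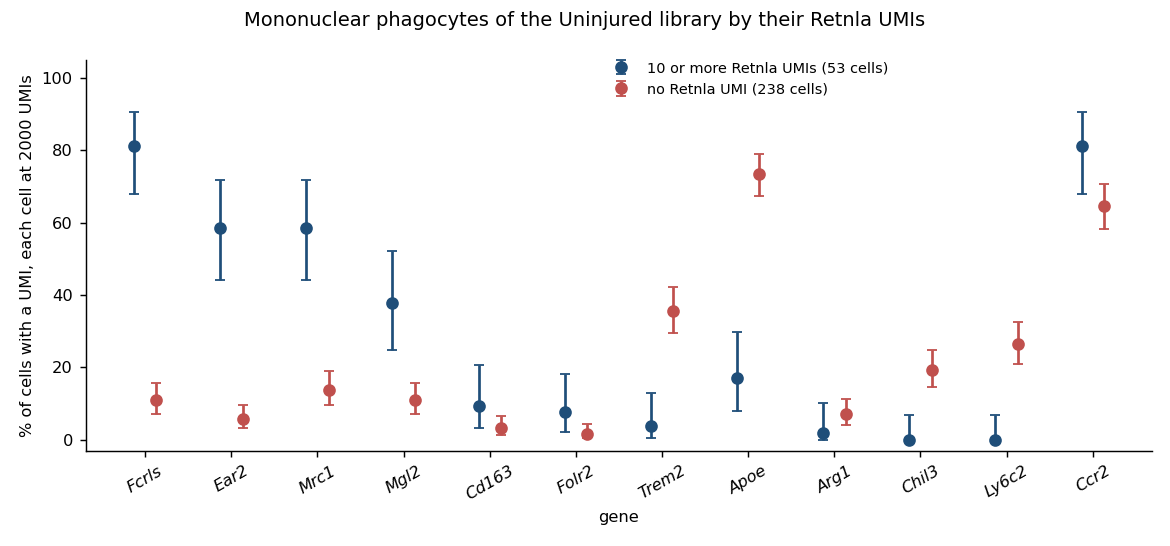
Share of mononuclear phagocytes of the Uninjured library with a UMI of each gene (y axis, % of cells after thinning to 2000 UMIs), for the 53 cells with 10 or more Retnla UMIs and the 238 with none, with exact Clopper-Pearson 95% intervals. Fcrls, Ear2, Mrc1 and Mgl2 are higher in the first set, while Trem2, Apoe, Chil3 and Ly6c2 are higher in the second. The intervals of Ccr2, at 81.1% and 64.7%, overlap.

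Few Retnla-rich phagocytes were found after injury, with a median depth of 5409.5 UMIs at 3 dpi and 11480 UMIs at 7 dpi. Of the 10 at 3 dpi, 4 carried Fcrls, 2 Mgl2, 7 Mrc1, 3 Ear2, 4 Trem2 and 7 Apoe. All 5 at 7 dpi carried Fcrls, Mgl2, Mrc1 and Ear2, and 2 carried Trem2. The number of cells and the depths do not allow a comparison.

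Chil3 (ENSMUSG00000040809, chr3:106147554-106167564, minus strand) encodes the chitinase-like protein Ym1. In C1q macrophages it was at 58.3 CPM (42-78.8) in Uninjured, 298 (284-312) at 1 dpi, 156 (141-171) at 3 dpi and 60.4 (41.6-84.8) at 7 dpi. It was the 1 gene of the 10 that peaked at 1 dpi with more than 2-fold over Uninjured, 5.11-fold (3.76-7.11), and Uninjured and 7 dpi overlapped. Cells with a UMI made up 18.8%, 50.1%, 25.7% and 10.8%, or 6.25%, 29.8%, 18.7% and 6.93% after thinning. In B cells at 1 dpi the thinned share was 2.91%. Without cells carrying Ly6c2 the 4 levels were 24.9, 194, 95.3 and 17.6 CPM, again highest at 1 dpi.

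C1q macrophages were not where most Chil3 lay. Neutrophils were at 1876, 3889, 4362 and 981 CPM and held 47.4%, 41.3%, 41.3% and 14.1% of the Chil3 UMIs of their libraries. Granulocyte progenitors were at 1687 CPM at 1 dpi and 1015 CPM at 3 dpi, with 29.9% and 38.6% of the UMIs, while 4 cells were found in Uninjured and none at 7 dpi. Ly6c2 monocytes were at 298, 678, 649.9 and 874 CPM, 2.28-fold higher at 1 dpi than in Uninjured. Nonclassical monocytes at 7 dpi, at 930.0 CPM, overlapped the neutrophils. Chil3 was thus above C1q macrophages in neutrophils and in Ly6c2 monocytes of every library. Its most similar genes over the 50 points of class and library were Cd177 (r = 0.94), Nfe2 (0.94) and Hk3 (0.93).

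Arg1 (ENSMUSG00000019987, chr10:24915221-24927484, minus strand) encodes arginase 1, which splits arginine into ornithine and urea. Its level in C1q macrophages was 107 CPM (84.3-134, 77 UMIs) in Uninjured, 61 (54.7-67.7, 348 UMIs) at 1 dpi, 35.3 (28.5-43.2, 93 UMIs) at 3 dpi and 7.32 (1.99-18.7, 4 UMIs) at 7 dpi. The level was lower in each later library, by 1.75-fold (1.35-2.25) from Uninjured to 1 dpi and by 4.82-fold (1.82-18.1) from 3 to 7 dpi, and by 14.6-fold (5.48-54.9) over the whole course. In Uninjured 5 cells held 59 of the 77 UMIs. The thinned shares of cells, 7.5%, 5.46%, 4% and 2.97%, lay close together. That of Uninjured (2.8-15.6) overlapped the 2.3% of T and NK cells (1.15-4.07) but not the 0% of B cells (0-2.16). Before thinning, 13 of the 494 T and NK cells of Uninjured held 48 Arg1 UMIs. Without Ly6c2-carrying cells the level was 63.1, 51.4, 50.5 and 8.79 CPM, and the log2 ratio of 1 dpi to Uninjured was -0.30 in place of -0.81.

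Ly6c2 monocytes gave another order for Arg1. They were at 9.37 CPM (4 UMIs) in Uninjured, 52.1 (303 UMIs) at 1 dpi and 13.7 (11 UMIs) at 3 dpi, with 0 UMIs at 7 dpi. The 1 dpi level was 5.56-fold above Uninjured (2.15-20.5) and 3.8-fold above 3 dpi. Group 2 innate lymphoid cells, which are under 30 cells in each library, carried Arg1 in 10 of 13, 11 of 25, 14 of 27 and 6 of 10 cells, with 33, 53, 18 and 14 UMIs. Other mononuclear phagocytes of Uninjured were at 206 CPM, of which 199 of 239 UMIs came from 5 cells. T and NK cells of Uninjured were at 24.3 CPM, with a UMI in 2.63% of cells.

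Mgl2 (ENSMUSG00000040950, chr11:70130329-70137550, plus strand) encodes CD301b, a C-type lectin that binds galactose-type sugars. C1q macrophages were at 255 CPM (219.8-295) in Uninjured, 11.2 (8.63-14.3) at 1 dpi, 89.1 (78.1-101) at 3 dpi and 214 (177-257) at 7 dpi. The level was 22.8-fold lower (17.1-30.8) at 1 dpi than in Uninjured, and then 7.95-fold (6.01-10.7) and again 2.4-fold (1.91-3.01) higher in the later libraries, until 7 dpi overlapped Uninjured. Thinned shares of cells gave the same order, 18.8% (10.9-29), 0.56% (0.153-1.43), 5.11% (3.27-7.57) and 13.9% (7.79-22.2), with 28.8%, 1.37%, 8.58% and 23.4% before thinning. The thinned share at 1 dpi overlapped that of T and NK cells (0%, 0-0.354). Without Ly6c2-carrying cells the levels were 296, 68.5, 126 and 251 CPM. The log2 ratio of 3 to 1 dpi was then 0.88 and that of 7 to 3 dpi 0.99, both under 2-fold. In the gate without C1q genes Mgl2 was at 246, 40.7, 40.7 and 181 CPM, with no difference between 1 and 3 dpi. At 1 dpi Mgl2 rested on few cells, 10 of 731 C1q macrophages with 64 UMIs. The cell with 77 Retnla UMIs held 25 of these and carried no Ly6c2 UMI. Its part in the levels without Ly6c2 was not tested. Dendritic cells had 569, 109, 121 and 98.1 CPM, above C1q macrophages in Uninjured and at 1 and 3 dpi and below them at 7 dpi, and other mononuclear phagocytes 472, 296, 149 and 207 CPM. Muscle cells, gated on Pax7, Myf5, Myod1, Myog and Cdh15, carried Mgl2 in 50 of 203, 9 of 96, 63 of 388 and 39 of 322 cells at 35.9, 17.4, 15 and 25.3 CPM. In Uninjured 2% of those 50 muscle cells also carried a C1q UMI.

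Mrc1 (ENSMUSG00000026712, chr2:14229392-14332057, plus strand) encodes the mannose receptor CD206. Its level in C1q macrophages was 329 CPM (288-374) in Uninjured, 251 (238-264) at 1 dpi, 584 (555-614) at 3 dpi and 313 (268-364) at 7 dpi. Day 3 was the highest, 2.33-fold (2.16-2.5) above 1 dpi, and Uninjured and 7 dpi overlapped. It was present in a large part of the cells of each library, 67.5%, 54.7%, 69.9% and 57.7%, and after thinning 37.5% (26.9-49), 30.1% (26.8-33.6), 54.4% (49.7-59.1) and 40.6% (30.9-50.8). Without Ly6c2-carrying cells the levels were 389, 291, 583 and 319 CPM. Of all classes with at least 30 cells C1q macrophages had the highest Mrc1 level in each library, with intervals apart from the next class. Ly6c2 monocytes were at 16.4, 142, 133 and 33.7 CPM, 8.68-fold higher at 1 dpi than in Uninjured (4.19-21.6) and 3.96-fold lower at 7 dpi than at 3 dpi. Their Mrc1 levels rested on 7 UMIs in Uninjured and 14 at 7 dpi.

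Cd163 (ENSMUSG00000008845, chr6:124304656-124330527, plus strand) encodes the scavenger receptor for haemoglobin bound to haptoglobin. In C1q macrophages it was at 52.7 CPM (37.3-72.4, 38 UMIs) in Uninjured, 6.66 (4.71-9.14, 38 UMIs) at 1 dpi and 9.1 (5.83-13.5, 24 UMIs) at 3 dpi, with 1 UMI at 7 dpi. The Uninjured level was the highest, 7.92-fold above 1 dpi (4.92-12.8), and 1 dpi and 3 dpi overlapped. It was carried by 7 of 80 cells in Uninjured, and 36 of the 38 UMIs came from 5 of them. The thinned shares of cells were 6.25% (2.06-14), 1.26% (0.578-2.38), 2% (0.919-3.76) and 0.99% (0.0251-5.39) in time order. Their intervals overlapped, so the shares did not separate Uninjured from the injured libraries. At 1 dpi the thinned share also overlapped that of T and NK cells (0.192%, 0.0233-0.694) but not that of B cells (0%, 0-0.315). At 7 dpi the 1 UMI gives a level 28.8-fold below Uninjured, with an interval of 4.87-1168. Without Ly6c2-carrying cells the levels were 63.1, 3.81, 6.81 and 2.2 CPM. Dendritic cells were at 73.9, 24.1, 14.8 and 15.5 CPM and other mononuclear phagocytes at 68.1, 13, 12.3 and 11.5 CPM, so that dendritic cells had the highest Cd163 value of the classes with at least 30 cells in each library, with intervals that overlapped those of the next class.

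Folr2 (ENSMUSG00000032725, chr7:101839988-101857194, minus strand) encodes folate receptor beta. Its level was 121 CPM (96.7-149) in Uninjured, 164 (154-175) at 1 dpi, 163 (148-179) at 3 dpi and 51.2 (34.1-74.1) at 7 dpi in C1q macrophages. Folr2 was therefore not among the genes that were lower at 1 dpi, with a ratio of 1.36 (1.09-1.71), and it was 3.18-fold lower at 7 dpi than at 3 dpi (2.17-4.85) and 2.36-fold lower than in Uninjured (1.52-3.75). In Uninjured 5 cells held 62 of the 87 UMIs. Without Ly6c2-carrying cells it was at 145, 97.1, 146 and 54.9 CPM, and the 1 dpi level then lay below Uninjured, by less than 2-fold. The thinned shares of cells were 15% (8-24.7), 23.2% (20.2-26.5), 19.6% (16-23.5) and 9.9% (4.85-17.5), with overlap between Uninjured and 7 dpi. In Ly6c2 monocytes Folr2 had 0 UMIs in Uninjured, 53.3 CPM (310 UMIs) at 1 dpi, 6.24 CPM at 3 dpi and 0 UMIs at 7 dpi. Against a floor of 3 UMIs in the Uninjured monocytes, 1 dpi was at least 7.58-fold higher. C1q macrophages had the highest Folr2 level of the classes with at least 30 cells in each library. At 7 dpi mesenchymal cells, which were 73.8% of the kept cells, held 84 UMIs in 58 of 14974 cells. These were 57.9% of the library's Folr2 UMIs.

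Lyve1 (ENSMUSG00000030787, chr7:110850607-110863239, minus strand) encodes a hyaluronan receptor of lymphatic endothelium and of perivascular macrophages. C1q macrophages held 7 UMIs in 3 cells in Uninjured, 2 in 2 cells at 1 dpi, 23 in 12 cells at 3 dpi and 1 at 7 dpi. At 3 dpi the ratio to 1 dpi was 24.9 (6.15-218). Cells that carried no Ly6c2 UMI were at 11.6 CPM in Uninjured, 0 at 1 dpi, 10.8 at 3 dpi and 2.2 at 7 dpi. Prox1 and Mmrn1, lymphatic endothelial genes, were at 0 UMIs in the C1q macrophages of Uninjured and 3 dpi. The Lyve1 UMIs lay mostly in lymphatic endothelial cells, with 44 UMIs in 2 of 3 cells in Uninjured, 183 in 10 of 17 at 3 dpi and 69 in 7 of 8 at 7 dpi, which is 64.7%, 81.3% and 60.5% of the library totals. No such cell was gated at 1 dpi. Ly6c2 monocytes, other mononuclear phagocytes and dendritic cells had 0 Lyve1 UMIs in every library.

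Fcrls (ENSMUSG00000015852, chr3:87250758-87263738, minus strand) encodes a scavenger receptor related to Fc receptors that is used as a marker of microglia. In C1q macrophages it was at 339 CPM (297-384) in Uninjured, 15.6 (12.5-19.2) at 1 dpi, 219 (201-237) at 3 dpi and 194 (159-235) at 7 dpi. Uninjured lay above the others and 3 and 7 dpi overlapped. It was 21.7-fold lower at 1 dpi than in Uninjured (17-28) and 14-fold higher at 3 dpi than at 1 dpi (11.2-17.8), while 7 dpi was 1.75-fold below Uninjured. Thinned shares were 31.2% (21.3-42.6), 2.38% (1.39-3.78), 25.1% (21.2-29.4) and 12.9% (7.04-21), with 53.8%, 6.98%, 38.3% and 20.7% before thinning. Unlike the levels, the thinned shares of Uninjured and 3 dpi overlapped, and those of 3 and 7 dpi did not. Without Ly6c2-carrying cells the levels were 392, 38.1, 243 and 229 CPM. Unlike Retnla, Fcrls at 3 dpi was spread over many cells, 192 of 501. Other mononuclear phagocytes were at 492, 7.56, 53 and 144 CPM, and neutrophils had 0 Fcrls UMIs in every library.

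Trem2 (ENSMUSG00000023992, chr17:48346401-48354147, plus strand) encodes a receptor for lipids and lipoproteins that signals through the adaptor TYROBP. C1q macrophages were at 547 CPM (494-604) in Uninjured, 163 (152-173) at 1 dpi, 550.0 (522-579) at 3 dpi and 320.3 (275-371) at 7 dpi. Uninjured and 3 dpi overlapped, and 1 dpi was 3.36-fold below Uninjured (2.98-3.79) and 3.38-fold below 3 dpi (3.11-3.68). The thinned shares of cells followed, at 57.5% (45.9-68.5), 23.9% (20.9-27.3), 54.4% (49.7-59.1) and 35.6% (26.4-45.8), against 75%, 45.1%, 68.1% and 48.6% unthinned. Without Ly6c2-carrying cells the order was the same, 572, 202, 582 and 347 CPM. Trem2 was highest in C1q macrophages among the classes with at least 30 cells in each library, and Ly6c2 monocytes had 192, 98.1, 159.7 and 91.5 CPM.

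**Figure D4:**
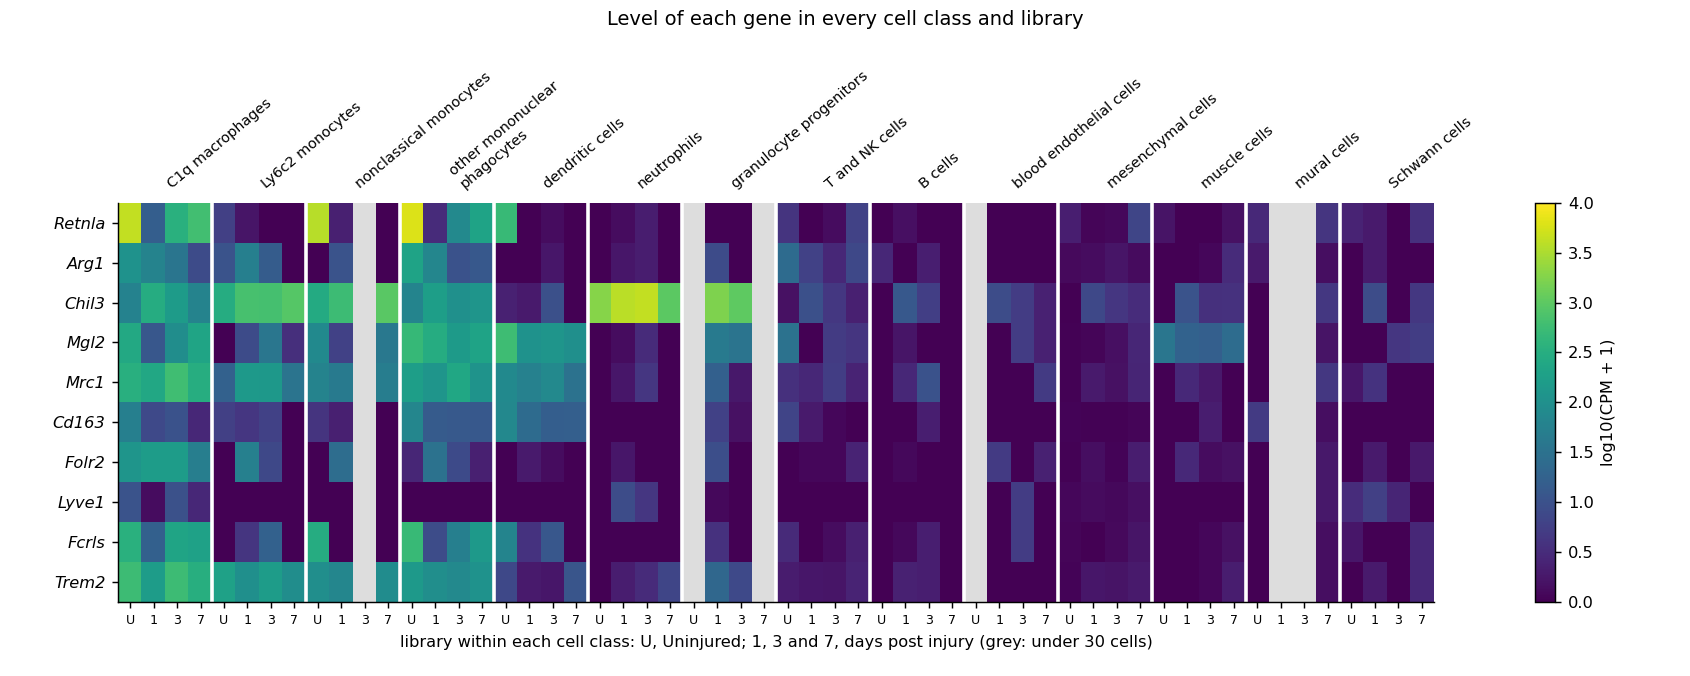
Heat map of the level of each gene, as colour on a log10(CPM + 1) scale, with genes in rows and the libraries of each cell class in columns, and classes of under 30 cells in grey. Among the classes shown Mrc1, Folr2 and Trem2 are highest in C1q macrophages of each library, while Chil3 is highest in neutrophils, followed at 1 and 3 dpi by granulocyte progenitors.

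All mononuclear phagocytes were also summed without regard to C1q. From Uninjured to 1 dpi 2 of 9 genes were higher and 6 lower, with 22.7% of all genes past 2-fold (16.4% higher, 6.3% lower) and a median log2 ratio of -1.16 against 0.21. From 1 to 3 dpi 6 of 10 were higher and 2 lower, against 12.5% of all genes (7.65% higher, 4.88% lower), with medians of 1.33 and 0.05. From 3 to 7 dpi none was higher and 5 were lower, against 17.6% (9.63% higher, 7.95% lower), with medians of -0.97 and -0.01. At 7 dpi against Uninjured 1 of 9 was higher and 5 were lower, against 14.7% (12.9% higher, 1.8% lower), with medians of -1.18 and 0.18. Folr2 was 2.9-fold higher at 1 dpi than in Uninjured over all phagocytes (2.33-3.63), a ratio that was under 2 in C1q macrophages. Arg1 was lower by 2.23-fold in the same comparison and Fcrls by 40.4-fold (33.2-49.5). Chil3 at 7 dpi was 2.77-fold above Uninjured over all phagocytes, while its levels in C1q macrophages overlapped.

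Ly6c2 monocytes, the phagocytes with a Ly6c2 UMI that were neither C1q macrophages nor nonclassical monocytes, numbered 64, 708, 165 and 102. At 1 dpi 4 of 7 tested genes were higher than in Uninjured (Arg1, Chil3, Mrc1 and Folr2) and none was lower, against 23.8% of all genes (19% higher, 4.75% lower). From 1 to 3 dpi Mgl2 and Fcrls were higher by 5.01- and 5.24-fold and Arg1 and Folr2 lower, 4 of 8 against 12.7% (5.67% higher, 7.03% lower). Mgl2 had 42 UMIs at 1 dpi and 29 at 3 dpi, and Fcrls 18 and 13. From 3 to 7 dpi Mgl2 and Mrc1 were lower, 2 of 4 against 20.2% (6.07% higher, 14.2% lower). At 7 dpi against Uninjured Chil3 was 2.94-fold and Mrc1 2.06-fold higher and Trem2 2.1-fold lower, all 3 that were tested, against 11.7% (7.75% higher, 3.96% lower). The Mrc1 ratio rested on 14 and 7 UMIs, and its interval of 0.776-6.02 includes 1. Retnla had 2, 4, 0 and 0 UMIs in these monocytes.

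Within C1q macrophages some pairs of genes were not evenly shared among cells, while the intervals of most pairs read overlapped. The pairs below are a selection from all pairs read. At 1 dpi, after thinning, Trem2 was carried by 51.3% of the 39 cells with Arg1 (34.8-67.6) and 22.4% of the 675 without (19.3-25.7). Mrc1 was carried by 42.2% of the 166 cells with Folr2 (34.6-50.1) and 26.5% of those without (22.8-30.4). At 3 dpi, Trem2 was in 73.5% of the 113 cells with Fcrls (64.3-81.3) and 48.1% of the 337 without (42.6-53.6), and Mrc1 in 82.6% of the 23 cells with Mgl2 (61.2-95) and 52.9% of the rest (48.1-57.7). Fcrls was rare in the Mgl2-carrying cells of 3 dpi, 4.35% with an upper limit of 21.9, against 26.2% (22.1-30.7) of the rest. The presence of Chil3 made little difference to Mrc1 at 1 dpi, 29.1% against 30.5%. At 7 dpi no pair read had intervals apart. Trem2 was there in 36.6% of the 41 cells with Mrc1 (22.1-53.1) and 35% of the 60 without (23.1-48.4). The cells of a library share their source, so these shares describe that library.

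The genes around the members were read from lists by function. For these genes and the relatives below, no value without the Ly6c2-carrying cells is given. Of 15 genes of the interleukin 4 and 13 axis, 11 had enough UMIs in C1q macrophages at 1 dpi against Uninjured, where 3 were higher and 1 lower by 2-fold, against 16.3% and 6.77% of all genes. Pparg, a lipid-sensing nuclear receptor gene, was at 15.3 and 39.8 CPM (2.6-fold higher, 1.43-5.29), Il2rg, the common gamma chain, was 2.05-fold and Stat6, the transcription factor of the pathway, 2.04-fold higher. From 1 to 3 dpi none was higher and 3 of 11 were lower (5.49% of all genes), Pparg by 3.38-fold, Egr2 by 2.98-fold and Socs1, an inhibitor of cytokine signalling, by 2.31-fold. From 3 to 7 dpi 2 of 11 were lower (10.7% of all genes), and Il4ra, the receptor chain, was at 236 and 78.7 CPM (2.99-fold lower, 2.2-4.18). None of the 8 genes tested passed 2-fold between 7 dpi and Uninjured, against 11.3% of all genes. The median log2 ratios of the list were 0.75, -0.07, -0.01 and 0.05 in the 4 comparisons, beside 0.17, 0.01, -0.06 and 0.04 for all genes. The cytokine genes themselves were sparse. Il4 had 32 UMIs in 14 of 22 mast cells at 1 dpi and 9 UMIs in 8 of 19 at 3 dpi, Il13 had 13 UMIs in 3 T and NK cells of Uninjured, and Il33 was at 113, 114, 197 and 44 CPM in mesenchymal cells.

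Among 12 further genes of alternative activation, 6 were tested at 1 dpi against Uninjured, of which 1 was higher and 2 lower, against 16.3% and 6.77% of all genes. Ear2 was at 128 CPM in Uninjured and 2.28 CPM at 1 dpi (56.1-fold lower, 31.2-109), and Ccl24, an eosinophil attracting chemokine gene, was 4.16-fold lower. Il10, an anti-inflammatory cytokine gene, was at 9.72 and 137 CPM (14.1-fold higher, 6.82-35.2). From 1 to 3 dpi 1 of 6 was higher (7.34% of all genes) and none lower. From 3 to 7 dpi 1 of 6 was higher and 2 lower (6.75% and 10.7% of all genes), Il10 by 27-fold (7.41-225) and Tgm2, transglutaminase 2, by 3.53-fold. The wide interval of Il10 reflects few UMIs at 7 dpi. At 7 dpi against Uninjured 2 of 5 were lower (3.96% of all genes), neither with 100 UMIs. The medians in the 4 comparisons were -0.45, 0.59, -0.61 and -0.66, beside 0.17, 0.01, -0.06 and 0.04 for all genes.

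Of the 14 further genes of the resident programme, 2 of 12 tested were higher and 3 lower at 1 dpi than in Uninjured, against 16.3% and 6.77% of all genes. Cbr2, a carbonyl reductase gene, was 3.16-fold higher (103 to 324 CPM), Maf, a transcription factor gene, 2.61-fold higher and Igf1, a growth factor gene, 2.91-fold lower. From 1 to 3 dpi 3 of 10 were higher (7.34% of all genes), Igf1 by 3.21-fold, Selenop by 2.66-fold and Gas6 by 2.22-fold, and 1 was lower (5.49%), Ednrb by 2.53-fold. From 3 to 7 dpi Igf1 was 3.63-fold higher, at 44.4 and 161 CPM, while 3 of 10 were lower (10.7% of all genes), Cbr2 by 3.16-fold, Stab1 by 2.72-fold and Selenop by 2.69-fold. Igf1 at 7 dpi was 4-fold above Uninjured (2.6-6.32), with 1 of 11 higher and 1 lower, against 7.31% and 3.96% of all genes. The medians were -0.09, 0.38, -0.84 and -0.45, with all genes as above. The 5 mesenchymal genes in these C1q macrophages summed to 909 CPM in Uninjured, 561 at 3 dpi and 6294 at 7 dpi. Their part in the Igf1 ratios was not tested.

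Of 13 genes linked to TREM2 and lipid handling, all were tested. At 1 dpi against Uninjured 4 were higher and 2 lower (16.3% and 6.77% of all genes), with Apoe at 13087 and 4086 CPM (3.2-fold lower), Gpnmb 3-fold higher, Cd9 2.71-fold lower and Fabp5 and Plin2 2.04-fold higher. At 3 dpi Apoe reached 22369 CPM, 5.47-fold above 1 dpi, as the 1 gene that was higher (7.34% of all genes), and Lgals3, Lpl and Spp1 were the 3 that were lower (5.49%), by 2.2-, 2.1- and 2.03-fold. From 3 to 7 dpi 1 was higher and 4 lower (6.75% and 10.7% of all genes), with Cd9 3.11-fold higher and Gpnmb, Ctsd and Fabp5 lower by 5.82-, 2.56- and 2.49-fold. At 7 dpi against Uninjured none was higher and 3 were lower (3.96% of all genes), among them Spp1 by 5.18-fold and Fabp5 by 2.08-fold. The medians were 0.43, -0.25, -0.17 and -0.16, with all genes as above.

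Relatives of the members were read because near-identical copies can share reads. No value is given here for Chil4, the listed relative of Chil3, and sharing of reads was not tested for any member. Retnlg, the relative of Retnla, was at 19504, 13802, 12329 and 6645 CPM in neutrophils, for which it was a gate marker, and at 9.72, 13.7, 8.72 and 5.49 CPM in C1q macrophages. Clec10a, the paralog of Mgl2, was at 70.8, 45.5, 86.5 and 76.9 CPM in C1q macrophages, where 1 dpi was within 2-fold of Uninjured. Arg2 lay in neutrophils, at 199 CPM at 1 dpi. Of the 15 relatives listed, 5, 6, 5 and 2 were tested in C1q macrophages in the 4 comparisons, and 1, 2, 2 and 1 passed 2-fold, beside 23.1%, 12.8%, 17.4% and 11.3% of all genes, Trem1 being 2.6-fold higher at 3 dpi than at 1 dpi. The medians were 0.49, 0.01, -0.60 and -0.96.

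Over the 50 points of class and library with at least 30 cells, the gene most similar to Retnla among 8117 genes was Fcrls (Pearson r = 0.91 of log2(CPM + 1)), followed by Lyz1 (0.80) and Clec4b1 (0.69). Mgl2 was most similar to Clec4b1 (0.79) and Cd163 (0.77), and Cd163 to Cd209d (0.90) and Upb1 (0.85). Folr2 was nearest to Pf4 (0.91), Ccl12 (0.89) and Cbr2 (0.87), Arg1 to Tmem37 (0.82) and Pf4 (0.80). Mrc1 was nearest to Cysltr1 (0.95) and Clec4a3 (0.94), and Trem2 to Apoc2, Ms4a8a and Adgre1 (each 0.94). Lyve1 had no close gene, the nearest being Galc (0.52). The points share libraries and depth, so these values are a description.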

How the data were processed

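The authors aligned reads with STAR in Cell Ranger, and the deposited matrices hold unscaled UMI counts. Reads were also down-sampled across libraries according to the methods, at a point relative to the deposit that is not given in the sources used here. The submitters' processing notes name Seurat 3.1.1 and mm10. The 4 libraries held 12031, 11722, 15160 and 23752 cells and 112317902, 91146335, 116346301 and 129007669 UMIs.

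Cells within 2 SD of their library's mean log10 UMIs and log10 genes, with at most 10% mitochondrial UMIs, were kept. DoubletFinder, used by the authors, was replaced by Scrublet in scanpy 1.11.5, which scored each library, and the top 7.5% were dropped. This left 10307, 9641, 12604 and 20301 cells with median UMIs of 8638, 5896, 4338 and 3049. Pairs of libraries shared 30 to 95 barcodes. Computation used Python 3.11.15, numpy 2.4.6, scipy 1.17.1, pandas 2.3.3, scikit-learn 1.9.0 and matplotlib 3.10.9. Ratio intervals came from the conditional binomial, and the calculation was tested on simulated data. Ratios needed 20 UMIs over both libraries, and classes of under 30 cells are given as sums. Identifiers were matched to GENCODE M21 on GRCm38 (99.6%).

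The members, lists and markers were chosen with earlier results of these data known. All members are named. Of the lists, genes past 2-fold with at least 100 UMIs over both libraries are named, at most 4 per list and comparison, and the 3 most similar genes of each member were computed. The alternatives covered filters, doublets, gates, depth, scaling and weight of cells. Some gate markers and the results on some genes are not reported here.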

Additional observations from a re-analysis of the deposited data

Results flagged for a closer look

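Lyve1 had ratios of opposite sign in C1q macrophages and neutrophils between 1 and 3 dpi. The log2 ratio of 3 dpi to 1 dpi was 4.64 in C1q macrophages, from 23 and 2 UMIs, and -1.19 in neutrophils, from 3 and 20 UMIs. The neutrophil ratio was 0.438 with an interval of 0.0833-1.48, which includes 1. Each class had 1 library per time point, and the difference between the classes was not tested.

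Mgl2 had ratios of opposite sign in C1q macrophages and Ly6c2 monocytes between 3 and 7 dpi. Its log2 ratio of 7 dpi to 3 dpi was 1.26 in C1q macrophages, from 117 and 235 UMIs, and -3.91 in Ly6c2 monocytes, from 1 and 29 UMIs, and this difference was not tested either.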

How the results depend on the processing

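No paired analysis was possible because each time point is 1 library. Of 440 values that alternatives gave for the 49 ratios past 2-fold, 438 kept their direction and 427 stayed past 2-fold. The 440 include alternatives in the minimum of UMIs, which only select the genes tested and cannot change a ratio. These counts therefore overstate how far the ratios were put to a test. Both changes of direction came from gating macrophages without C1q (on other macrophage markers and no Ly6c2 UMI), where the log2 ratio of 3 dpi to 1 dpi was -0.30 for Retnla and -0.0031 for Mgl2. Fcrls in that gate was at 443, 20.4, 211 and 167 CPM in time order, again lowest at 1 dpi. Its log2 ratio of 7 dpi to Uninjured was -1.41 there. The count of members past 2-fold between 1 and 3 dpi in C1q macrophages was 3 of 8 tested with that gate, against 11.9% of all genes. With a minimum of 100 UMIs it was 3 of 7 between 3 and 7 dpi (10.8% of all genes) and 2 of 6 between Uninjured and 7 dpi (5.07%), as fewer genes were tested. Gating all phagocytes by Cd68 gave 3 of 9 between 3 and 7 dpi (15.9%). The cause of the gate differences was not tested. In the 1 dpi library 1 C1q macrophage without a Ly6c2 UMI held 77 Retnla and 25 Mgl2 UMIs. Its part in the changes of direction was not tested either. The median log2 ratio of all genes was shifted by up to 0.17 in C1q macrophages and 0.21 in all phagocytes. Repeating the values without Ly6c2-carrying cells was chosen after seeing the data. Lyve1, Cd163 and Arg1 had 1, 1 and 4 UMIs in C1q macrophages at 7 dpi, so their levels there rest on few counts.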
